A study of Mus musculus with 12 samples.

Results

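In mouse testes, the effect of deleting the histone deacetylase gene Hdac3 was compared between 2 germ cell stages. For every gene it was asked whether the knockout (KO) effect in round spermatids (RS) differed from that in pachytene spermatocytes (PS). All 12 libraries of the series were used, 3 in each of 4 groups, and the gene counts of both cell types were joined by gene symbol. KO mice were Stra8-cre/Hdac3fl/-, in which a Cre that acts in germ cells before meiosis removes the floxed allele and the other allele is null from the start. Controls were Hdac3fl/+, with 1 floxed and 1 normal allele, and are labelled wild type; no Cre is named for them. The labels do not give the age of the mice, and they do not say how the cells were purified. The submitters describe the replicates as biological triplicates.

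HDAC3 removes acetyl groups from histones and works as the catalytic subunit of the NCoR and SMRT corepressor complexes, which silence target genes. Pachytene spermatocytes are the cells of meiotic prophase in which homologous chromosomes are paired and recombination is completed. Round spermatids are their haploid products, in which the genes for the acrosome, the flagellum and the compacted sperm nucleus are most active. Many spermatid genes are already transcribed in late spermatocytes, so a KO effect on one gene can be seen at both stages. The interaction is the log2 fold change of KO against control in RS minus that in PS. A positive interaction therefore means a larger rise or a smaller fall in RS, and a negative one the opposite.

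Of 21429 genes in the tables, 16581 passed the filter on low counts and were tested. Library totals ranged from 11205732 to 17467583 counts. Levels are given as CPM, counts scaled to a common library total after scaling of the libraries, a unit in which a gene can be compared between libraries but not with another gene of a different length. Levels of the cell type lists separated the 2 stages in part: transition proteins, protamines and testis histones summed to 1862 to 3820 CPM in control PS and 8248 to 22020 CPM in control RS, and meiotic prophase genes to 3978 to 4336 and 3242 to 3469 CPM. Markers of other cells were present as well. Sertoli cell genes summed to 746.9 to 1679 CPM in control PS and 131.0 to 198.1 CPM in control RS, and macrophage genes to 46.59 to 84.52 and 101.7 to 134.5 CPM. In bulk RNA of this kind, more cells of a type and more RNA per cell cannot be told apart.

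The targeted gene followed the labels in every library. Hdac3 stood at 61.9, 53 and 82.5 CPM in the control PS libraries (replicate 1, replicate 3 and the remaining replicate, an order kept throughout) and at 17.8, 17.9 and 24.8 CPM in KO PS. The RS libraries held 42.3, 48.7 and 52.9 CPM in controls and 13.5, 14.0 and 17.1 CPM in KO. No KO library overlapped a control library, and the fall was 1.71 in PS and 1.69 in RS on the log2 scale. The interaction was 0.02 ± 0.28 (SE; adjusted p = 0.987), with a 95% interval of -0.59 to 0.62. Its sign turned under other settings, so the data give no direction for a stage difference in Hdac3 itself.

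Measured one stage at a time, the KO effect was far broader in RS. In RS 5685 genes passed an adjusted p of 0.05 (34.3%), 3330 of them higher (20.1%) and 2355 lower (14.2%) in KO. That split depended on scaling, since 58.6% were higher here, 84.1% under plain library size and 43.9% under DESeq2, which moved the median RS effect of all genes by 0.27 and -0.13 from 0.03. In PS 1199 genes passed (7.23%), 174 higher (1.05%) and 1025 lower (6.18%). The difference itself passed for 3 genes (0.0181%), Gse1, Gclc and Cspg4, all positive, and for 0 genes in the negative direction. At an unadjusted p under 0.05 there were 2253 genes (13.6%), 1907 positive (11.5%) and 346 negative (2.09%). DESeq2 called 95 genes, 87 positive and 8 negative, and limma voom called 2, both positive. Without KO PS replicate 1 or 3 the PS count was 382 or 457, without control PS replicate 1 or 3 it was 745 or 536, and the RS count was 3690 without control RS replicate 3 and 3105 without the remaining KO RS library. A stage difference was measured with less certainty than either effect: the median standard error was 0.38 for the interaction and 0.27 for each KO effect, all in log2 units. The 95% interval of an interaction reached 0.82 to either side at the median.

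Libraries with the same replicate number deviated together, so the fit was also made with the replicate number as a block. With the block 1285 genes passed (7.75%), 1117 positive (6.74%) and 168 negative (1.01%), and the 3 genes named above were among them. In RS 9125 genes passed (55.0%), 4823 higher and 4302 lower in KO, and in PS 3189 (19.2%), 1069 higher and 2120 lower. The block count depended on single numbers: it was 1512 without number 1, split into 789 positive and 723 negative, 14 without number 3 and 26 without the remaining libraries. It also depended on scaling, with 2859 genes (98.8% positive) under plain library size and 2038 (53.9% positive) under DESeq2, against 86.9% positive here. Passing under all 3 scalings were 1021 of the 1117 positive genes and 32 of the 168 negative ones. All 1285 kept their sign in every setting in which they were tested, and 1283 had that sign in each of the 3 replicate numbers. Of all genes tested, 30.1% were above 0 and 16.3% below 0 in each number. The 1285 were called from the same libraries with the number as a block, which favours a sign shared by the numbers. Their agreement is therefore no separate support. Below, "with the block" marks a call that was made only there, and genes named from it were chosen after their values were seen.

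**Figure D1:**
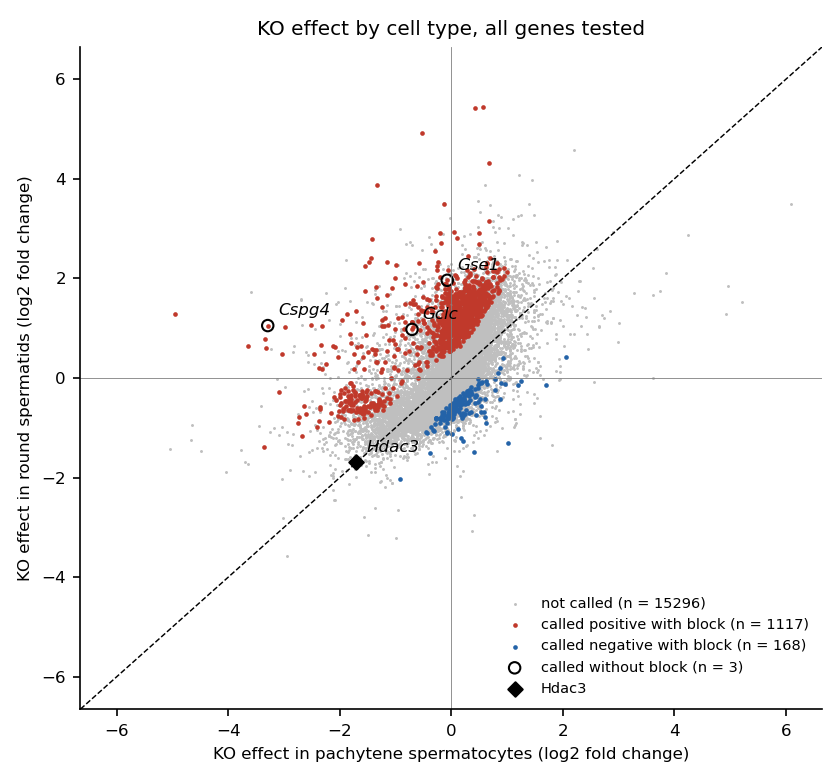
KO effect in PS (horizontal axis) and in RS (vertical axis), both as log2 fold change of KO against control, for the 16581 genes tested. Points on the dashed line have equal effects. The 1117 positive calls made with the block lie above the line and the 168 negative calls below it, and Hdac3 lies close to it.

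Gse1, whose interaction had the lowest unadjusted p of all genes, encodes a coiled-coil protein found in histone deacetylase and demethylase corepressor complexes (mm10 chromosome 8, 120228501 to 120581383). Control PS held 23.3, 17.1 and 19.3 CPM and KO PS 20.7, 18.0 and 18.2 CPM. Control RS held 6.01, 5.96 and 6.02 CPM and KO RS 22.2, 22.5 and 25.5 CPM. The PS groups overlapped, and every KO RS library was above every control RS library and close to the levels of PS. The interaction was 2.03 ± 0.25 (SE; adjusted p = 0.0154).

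Gclc encodes the catalytic subunit of glutamate-cysteine ligase, which makes the first step of glutathione synthesis (mm10 chromosome 9, 77754535 to 77794489). It fell in PS, from 80.5, 78.7 and 66.6 CPM to 51.9, 43.0 and 43.8 CPM, and rose in RS, from 16, 14.2 and 17.3 CPM to 28.4, 31.5 and 33.5 CPM. Neither pair of groups overlapped. The effects were -0.70 in PS (adjusted p = 0.0121) and 0.98 in RS (adjusted p = 0.00133), and the interaction was 1.68 ± 0.22 (adjusted p = 0.0154).

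Cspg4 encodes the NG2 proteoglycan of pericytes and glial precursors (mm10 chromosome 9, 56865104 to 56899870). It is the lowest of the 3 in level, and was named although it lies under 5 CPM in every group. Control PS held 1.74, 1.10 and 1.68 CPM against 0.239, 0.0601 and 0.140 CPM in KO PS, which are 1 to 4 counts per library. RS went from 1.202, 1.26 and 1.95 CPM to 1.96, 3.55 and 3.61 CPM, the lowest KO library standing just above the highest control. The interaction was 4.34 ± 0.66 (adjusted p = 0.0487). Leaving out single libraries ended many of the calls: over the 12 such fits the adjusted p ranged from 0.0209 to 0.209 for Gse1, 0.0266 to 0.258 for Gclc and 0.0209 to 0.278 for Cspg4. Gse1 passed without control PS replicate 3, the remaining control PS library or KO RS replicate 1, Gclc without either of the last 2 of these, and Cspg4 without KO RS replicate 1; without any other single library they did not pass. The interactions themselves stayed between 1.89 and 2.13, 1.49 and 1.70, and 3.86 and 4.79.

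Genes that passed in RS alone were mostly not shown to be specific to RS. Of 4832 such genes, the interaction passed for 1 (0.0207%), and with the block for 929 of 6564 (14.2%). Of the 3203 genes higher in KO RS alone, 86.6% also had a positive value in PS, with a median of 0.33 in PS and 1.2 in RS. Among the 1629 genes lower in KO RS alone, 93.9% had a negative value in PS, with medians of -0.35 and -0.71. Passing in PS alone were 346 genes, 0 of them with a passing interaction, and with the block 110 of 628. Both effects passed in the same direction for 847 genes, 121 up and 726 down, and in opposite directions for 6, all down in PS and up in RS. Gclc and Cspg4 are 2 of these 6; Dab1, Hcls1, C1qb and an unnamed clone gene are the others, and their interactions missed the threshold. Across genes the PS and RS effects, which share no library, had a Pearson r of 0.581 and a Spearman rho of 0.665; genes are not independent replicates.

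The largest group of calls made with the block, 801 of the 1117 positive ones, were genes higher in KO RS whose PS effect did not pass. Among the genes with the lowest adjusted p-values without the block after the 3 called ones were Gtse1, Klf10, Tfdp1, Mis18a and Traf7, which missed the threshold (0.0549 to 0.0586) and passed with the block (0.00133 to 0.00185). Each of these stood higher in control PS than in control RS. Fgl2, described below, had an adjusted p of 0.0549 without the block as well. Its mean was lower in control PS (3.88 CPM) than in control RS (22.7 CPM). Tfdp1 encodes DP1, the partner of E2F factors in the control of cell cycle genes. It held 106, 96.0 and 120 CPM in control PS, 123, 116 and 113 CPM in KO PS, 16.1, 16.3 and 19 CPM in control RS and 41.1, 43.7 and 47.4 CPM in KO RS. The PS groups overlapped and the RS groups did not, and KO RS stayed below PS. Its interaction was 1.23 ± 0.20.

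Gtse1, whose product acts on microtubules and p53 in dividing cells, held 31.7, 26.3 and 30.8 CPM in control PS and 32.5, 30.3 and 28.1 CPM in KO PS. In RS it went from 4.18, 5.23 and 7.97 CPM to 19.9, 20.05 and 24.9 CPM, an interaction of 1.87 ± 0.31. The groups overlapped in PS and stood apart in RS. Mis18a, needed to load the centromeric histone, had an interaction of 1.51, Klf10, a zinc finger repressor induced by TGF-beta, also of 1.51, and Traf7, a ubiquitin ligase, of 1.38.

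**Figure D2:**
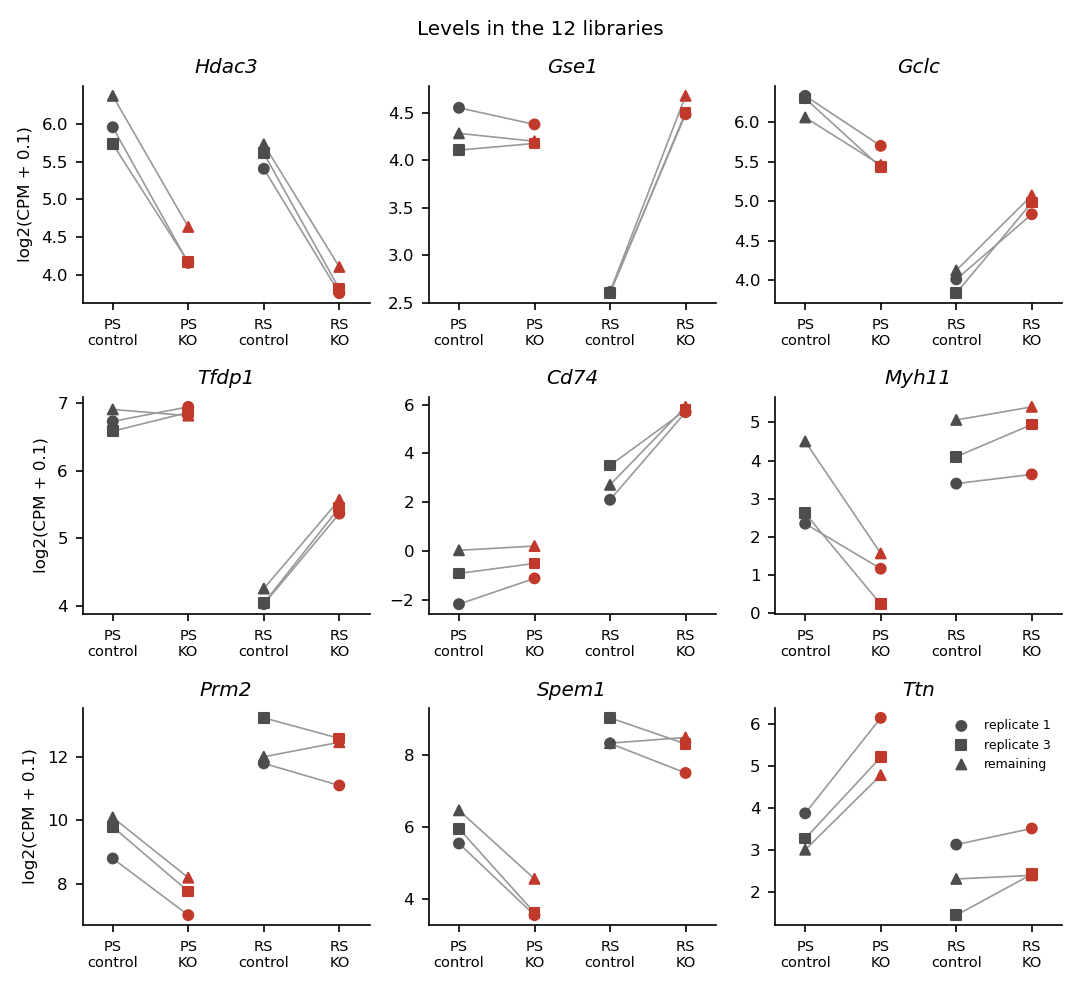
Levels of 9 genes in the 12 libraries as log2(CPM + 0.1), with controls in grey and KO in red; symbols mark the replicate number and lines join the same number. Hdac3 falls alike at both stages, Gse1, Tfdp1 and Cd74 rise in RS with overlapping groups in PS, and Prm2 and Spem1 fall in PS with overlapping groups in RS.

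Each gene list is read against the shares of all genes tested, which were 20.1% higher and 14.2% lower in RS, 1.05% higher and 6.18% lower in PS, and 6.74% positive and 1.01% negative for the interaction with the block. Of 39 prophase genes tested, 1 rose and 1 fell in PS, close to the share of all genes, while 14 rose and 1 fell in RS. Their median interaction was 0.36, beside 0.11 for all genes, and 4 passed with the block, all positive, among them Trip13, the ATPase that remodels HORMA domain proteins, Spata22 and Ccdc36. Spata22, needed for meiotic recombination, held 21.8, 26.7 and 28.8 CPM in control PS and 26.8, 31.3 and 15.5 CPM in KO PS, against 3.99, 5.89 and 8.22 CPM in control RS and 10.98, 15.9 and 11.1 CPM in KO RS. The PS groups overlapped and the KO RS libraries were all above the control ones; the interaction was 1.15 ± 0.41 (adjusted p = 0.264, and 0.0462 with the block). The cohesin gene Stag3, the most abundant of the list, had effects of 0.10 in PS and -0.08 in RS, neither of which passed. Of 30 genes of the meiotic divisions, 1 rose in PS and 9 rose and 1 fell in RS. Their median interaction was 0.08, a value that turned negative under DESeq2 scaling, and 2 passed with the block, Mad2l1, a spindle checkpoint protein, and Cdc25b, a phosphatase that activates CDK1, which is about the 6.74% of all genes. Among 25 pachytene regulators and piRNA genes 0 interactions passed, with or without the block, and their median was -0.08.

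Spermatogonia are the mitotic cells from which spermatocytes arise. Of 21 of their markers tested, 1 rose in PS and 16 rose in RS (median effects 0.26 and 1.36), and 6 passed with the block, all positive: Kit, Uchl1, Dazl, Dmrt1, Ccnd1 and Etv5. Kit encodes the receptor of stem cell factor that marks differentiating spermatogonia. It held 14.7, 12.3 and 19.4 CPM in control PS and 20.8, 15.4 and 24.5 CPM in KO PS, and 13.4, 15.0 and 16.9 CPM in control RS and 40.0, 35.0 and 49.2 CPM in KO RS. The RS groups stood apart by more than their spread; the interaction was 1.07 ± 0.32 (adjusted p = 0.201, and 0.00859 with the block). Summed over the list, KO RS held 1309 to 1396 CPM and control RS 990.0 to 1311 CPM, so the total overlapped, since it is carried by Dmrtb1, at 903 CPM in control RS and 691 CPM in KO RS.

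The highest interactions by list belonged to macrophage markers. All 14 were tested; 12 rose in RS, while in PS 1 rose and 1 fell. Their median was -0.12 in PS and 1.42 in RS, with a median interaction of 2.05, and 11 of 14 passed with the block, all positive, beside 6.74% of all genes. They include the complement genes C1qa, C1qb and C1qc, the CSF1 receptor gene Csf1r, the lysozyme gene Lyz2, and genes of MHC class II, the complex that presents peptides to T helper cells: H2-Aa, H2-Ab1, H2-Eb1 and Cd74, the invariant chain. Cd74 held 0.120, 0.427 and 0.917 CPM in control PS and 0.358, 0.601 and 1.05 CPM in KO PS. In RS it held 4.18, 11.3 and 6.43 CPM in controls and 51.4, 54.4 and 59.9 CPM in KO. The PS groups overlapped near 0 and KO RS stood far above control RS (2.92, adjusted p = 0.00077); the interaction was 2.43 ± 0.75 (adjusted p = 0.218, and 0.0244 with the block).

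H2-Aa stood at 1.90, 9.33 and 4.31 CPM in control RS and 27.1, 35.8 and 39.5 CPM in KO RS, and between 0.119 and 0.839 CPM in the 6 PS libraries. Mgl2, a lectin of macrophages and dendritic cells, was at 0 to 4 counts in control RS and at 71 to 134 counts in KO RS; in PS both groups lay near the floor of 3 counts, so no fold is given there. Fcgr3, an Fc receptor gene and the most abundant marker in PS, did not follow: it rose in PS by 0.71 (adjusted p = 0.0496), its value in RS was 0.54 (adjusted p = 0.0559), and its interaction of -0.17 changed sign under plain library size. Summed macrophage markers were 69.18 to 81.95 CPM in KO PS and 284.8 to 393.5 CPM in KO RS, against the control ranges given above; the part of cell content in these calls was not tested.

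Upstream sequences of 2 MHC class II genes are shown because these genes moved together in RS and share a promoter design known as the X and Y boxes. The 250 bases before the start of each gene are from RefSeq (GRCm38.p6), H2-Aa from chr17:34287824-34288073 on the minus strand and H2-Eb1 from chr17:34305617-34305866 on the plus strand. Capitals mark ATTGG or its reverse complement (the Y box core, an inverted CCAAT), TGACGTCA (the cAMP response element, CRE) and AGGTCA or its reverse complement (the nuclear receptor core).
H2-Aa: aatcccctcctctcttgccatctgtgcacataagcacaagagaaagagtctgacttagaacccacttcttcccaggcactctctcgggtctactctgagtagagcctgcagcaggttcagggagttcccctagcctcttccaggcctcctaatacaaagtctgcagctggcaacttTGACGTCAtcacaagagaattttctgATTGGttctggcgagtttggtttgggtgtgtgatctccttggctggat
H2-Eb1: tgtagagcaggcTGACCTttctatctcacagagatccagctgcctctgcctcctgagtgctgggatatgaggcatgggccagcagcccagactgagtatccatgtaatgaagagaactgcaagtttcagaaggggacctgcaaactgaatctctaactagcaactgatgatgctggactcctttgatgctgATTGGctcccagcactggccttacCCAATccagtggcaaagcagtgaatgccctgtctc
H2-Aa holds 1 CRE and 1 Y box core, and H2-Eb1 2 Y box cores and 1 nuclear receptor core. Searched on both strands of 12898 promoters of tested genes, the Y box core was in 36.1% of all and in 37.3% of those with a positive and 35.6% of those with a negative call made with the block. The CRE was in 2.53%, 2.81% and 3.03%, and the nuclear receptor core in 12%, 11.9% and 12.1%. These shares lie close to one another.

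Some smooth muscle and pericyte genes differed in another way, with lower levels in KO PS. Of 14 peritubular markers tested, 3 fell in PS (Myh11, Igf1 and Actg2), 11 did not pass there, and 1 rose in RS; the median was -1.09 in PS and 0.46 in RS, and 7 passed with the block, all positive. Myh11, the smooth muscle myosin heavy chain, held 4.99, 6.05 and 22.5 CPM in control PS and 2.15, 1.08 and 2.87 CPM in KO PS, and 10.4, 17.1 and 33.4 CPM in control RS and 12.4, 30.7 and 42.3 CPM in KO RS. The PS groups did not overlap and the RS groups did; within each number the KO value was higher than the control in RS. The interaction was 2.95 ± 0.86 (adjusted p = 0.201, and 0.00289 with the block). The list also holds a germ cell gene: Actg2, at 282 CPM in control RS, fell at both stages with the block, and its reads may be shared with other actin genes.

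Others with this pattern, by the rule applied to the blocked fit, were Rgs5, a pericyte regulator of G protein signalling (interaction 4.01), Fgl2, a fibrinogen-like protein (3.52), and Cyp26b1, the retinoic acid-degrading enzyme (2.71). Fgl2 fell in PS from 3.01, 2.99 and 5.66 CPM to 0.358, 0.421 and 0.629 CPM, a fall of 3.03 on the log2 scale (adjusted p = 0.00193), while in RS control libraries held 27.0, 23.7 and 17.2 CPM and KO libraries 16.5, 41.5 and 37.3 CPM. The RS groups overlapped through KO replicate 1. The same library was the lowest of the KO RS libraries for Rgs5, at 0.924 CPM against 8.58 and 12.8 CPM, and for Cyp26b1, at 15.5 CPM against 39.8 and 47.1 CPM. Summed peritubular markers were 59.87 to 98.45 CPM in KO PS and 308.2 to 627.2 CPM in KO RS. Controls held 96.06 to 192.7 CPM in PS and 445.9 to 548.8 CPM in RS. A large part of these sums is Actg2, so they do not follow the muscle and stromal genes alone. Its mean was 55.9 CPM in control PS, 23.6 CPM in KO PS, 282 CPM in control RS and 194 CPM in KO RS. The part of muscle and stromal RNA in these values was not tested.

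Genes of late spermatid differentiation were also among those whose fall was deeper in PS. With the block, 86 of the 1117 positive calls were genes that fell in PS alone and 103 genes that fell in both stages. Of 14 tested genes of transition proteins, protamines and testis histones, 3 fell in PS and 2 in RS. The shares of all genes were 6.18% and 14.2%, so without the block the RS count is at the share of all genes. With the block 8 fell in PS and 7 in RS, beside 12.8% and 25.9% of all genes. The list medians were -1.17 and -0.50, and with the block 5 members had a positive and 1 a negative interaction. The median interaction of 0.75 kept its sign under the other scalings. Prm2 encodes a protamine, the small basic protein that replaces histones in the sperm nucleus. It held 444.9, 888.5 and 1092 CPM in control PS and 128.9, 216.4 and 292.1 CPM in KO PS. In RS it held 3559, 9625 and 4111 CPM in controls and 2196, 6144 and 5648 CPM in KO. The PS groups were apart and fell by 1.93 on the log2 scale (adjusted p = 0.0209); the RS groups overlapped (-0.31, adjusted p = 0.606). The interaction was 1.62 ± 0.64 (adjusted p = 0.291, and 0.00859 with the block). The part of spermatid RNA in the PS values of these genes, and of the flagellum genes below, was not tested.

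Prm1 (1.32), Tnp2 (1.09), H1fnt, a testis linker histone (0.97), and H2afb1 (1.02), which has near-identical copies and is uncertain, were the other positive calls, and H3f3a, a replacement histone H3.3 gene, the negative one (-0.61). Prm2 and Tnp2 are neighbours on chromosome 16, and their upstream 250 bases are shown because both moved together (RefSeq, GRCm38.p6, minus strand, chr16:10792106-10792355 and chr16:10788656-10788905; capitals as above).
Prm2: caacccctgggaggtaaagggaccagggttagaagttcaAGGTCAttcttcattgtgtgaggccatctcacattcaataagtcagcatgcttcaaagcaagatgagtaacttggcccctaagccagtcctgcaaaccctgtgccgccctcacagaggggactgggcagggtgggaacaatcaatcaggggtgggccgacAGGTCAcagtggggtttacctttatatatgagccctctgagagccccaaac
Tnp2: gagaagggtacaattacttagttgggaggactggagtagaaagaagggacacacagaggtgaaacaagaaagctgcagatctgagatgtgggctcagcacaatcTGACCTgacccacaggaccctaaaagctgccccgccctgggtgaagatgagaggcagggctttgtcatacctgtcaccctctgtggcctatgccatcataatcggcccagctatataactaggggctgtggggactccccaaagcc
Each holds AGGTCA or its reverse complement, 2 times in Prm2 and 1 time in Tnp2, with 0 CRE and 0 Y box cores; a match is a description of the letters and not a site.

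Some genes of the flagellum followed, but the list as a whole did not, with a median of -0.41 in PS and -0.58 in RS. Of 47 tested, 15 had an interaction above 0. In PS 17 fell and in RS 23, and with the block 8 positive interactions and 1 negative one passed. Spem1, which is needed to shed spermatid cytoplasm, held 46.4, 61.8 and 88.0 CPM in control PS and 11.6, 12.1 and 23.4 CPM in KO PS, against 321, 525 and 322 CPM in control RS and 181, 318 and 360 CPM in KO RS. Its PS groups stood apart and its RS groups overlapped, although with the block the fall in RS passed as well (-0.51, adjusted p = 0.0331). The interaction was 1.62 ± 0.46 (adjusted p = 0.201, and 0.00635 with the block). Others were Smcp, a protein of the mitochondrial sheath (1.22), Akap4, the scaffold of the fibrous sheath (0.78), Odf1, of the outer dense fibres (1.03), Oaz3, Spata18, Tssk3 and Tssk6. The negative one was Meig1, which is needed for flagellar assembly (-0.69). The median interaction of the list was -0.15, which turned positive under plain library size.

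For the acrosome and CatSper lists the medians of both stages lay close together. The median was lower in RS for energy genes (-0.29 in PS and -0.51 in RS) and regulators of spermatid transcription (-0.26 and -0.51). Of 35 acrosome genes 17 fell in PS and 24 in RS, with medians of -0.69 and -0.76, and 1 passed for the interaction with the block (Actrt2, 0.82). Among 28 genes of the CatSper channel and sperm surface 14 fell in PS and 16 in RS, with medians of -0.73 and -0.70, and 0 passed. Sperm run largely on glycolysis, and of 26 energy genes tested 6 were lower and 1 higher in KO PS, with 12 lower in KO RS. There the block gave 3 positive calls, Gapdhs and Hk1, which act in it, and the creatine kinase gene Ckb, and 2 negative ones, Tpi1 and Cox7b2. Regulators of spermatid transcription fell for 5 of 20 in PS and 9 in RS, and 2 positive and 1 negative interaction passed with the block. The positive ones were Spz1, a transcription factor gene and the most abundant of the list (0.88; adjusted p = 0.0266 with the block), and Tssk6 (1.14), which is also in the flagellum list. The negative one was Crem. This activator of many post-meiotic genes fell in RS by 0.82 (adjusted p = 0.00622) and had -0.27 in PS (adjusted p = 0.482), an interaction of -0.55 ± 0.27 (adjusted p = 0.38, and 0.0434 with the block). The median interactions of the acrosome, CatSper, energy and regulator lists lay between -0.07 and -0.21 and turned positive under plain library size.

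**Figure D3:**
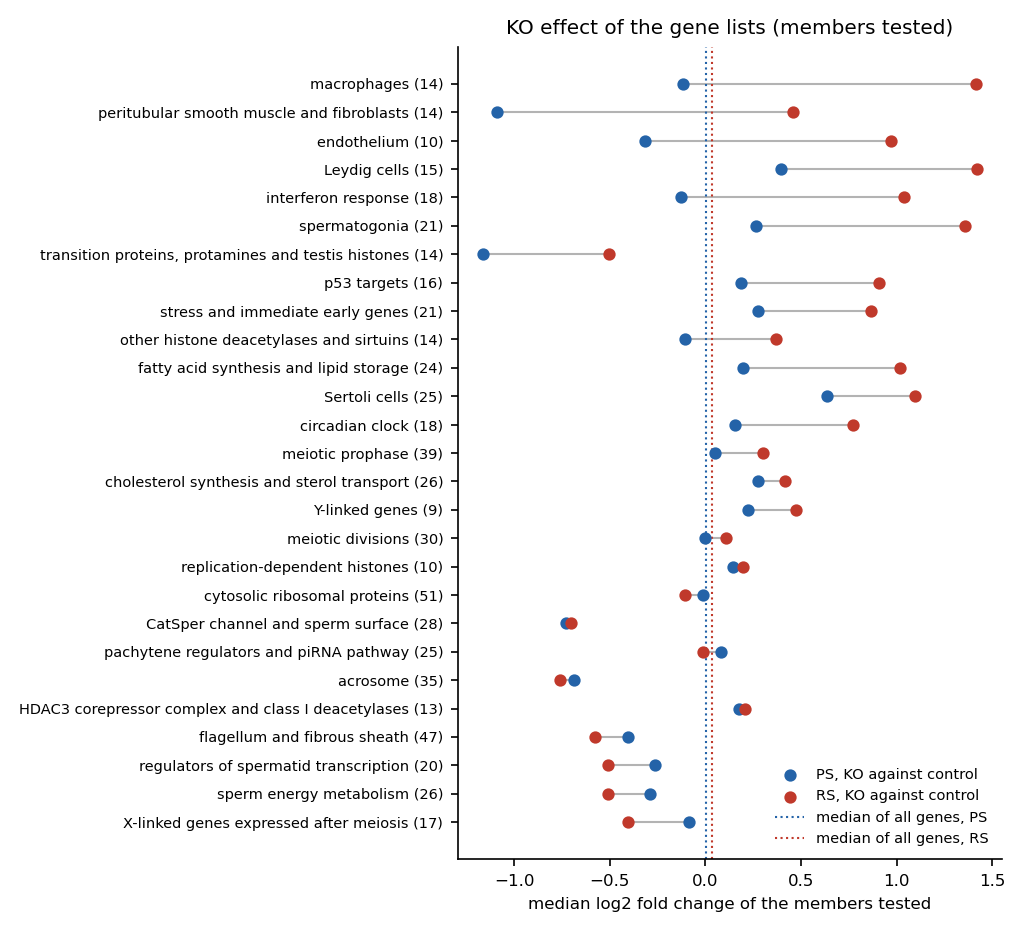
Median log2 fold change of KO against control in PS (blue) and RS (red) for 27 gene lists, ordered by median interaction, with the number of members tested in brackets and the medians of all genes as dotted lines. Macrophage and peritubular lists have the widest gaps, and acrosome and CatSper lists have close medians near -0.7.

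Negative interactions, where the KO effect was lower in RS, were fewer, by a margin that depended on scaling and replicate number. With the block there were 940 negative and 1098 positive calls under DESeq2, and 723 and 789 without number 1. In the fit reported here without the block, 0 genes passed in the negative direction, and 346 had an unadjusted p under 0.05. With the block 128 of the 168 fell in RS alone, 24 rose in PS alone and 4 fell in both. Ttn, the giant spring protein of the sarcomere, was the largest by the rule. It held 14.5, 9.59 and 7.95 CPM in control PS and 70.3, 36.7 and 27.3 CPM in KO PS, and 8.67, 2.65 and 4.88 CPM in control RS and 11.3, 5.28 and 5.19 CPM in KO RS. The PS groups stood apart and the RS groups overlapped; it rose by 2.06 in PS (adjusted p = 0.011), and the interaction was -1.64 ± 0.63 (adjusted p = 0.28, and 0.00695 with the block).

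Of the 12 negative genes named by the rule, Ttn and Bean1 also passed under both other scalings with the block, and the other 10 passed under 1 of these. Sema5a, a semaphorin, rose in PS from 3.31, 3.11 and 4.43 CPM to 7.16, 7.21 and 11.3 CPM and held 6.36 to 11.6 CPM in control RS and 6.19 to 9.70 CPM in KO RS. Pcsk6, a proprotein convertase, held 4.24, 3.44 and 4.56 CPM in control RS and 1.39, 2.03 and 1.65 CPM in KO RS, and its PS groups overlapped. The rest were Prr15, Sept14, Cdc20b, Jam2, Dpp10, Fam189a2 and Camk1g, with interactions of -1.39 to -1.12, and Col9a1, a collagen gene that fell at both stages (-0.92 and -2.02) with an interaction of -1.11. Of the 9 list members with a negative call, Meig1, described above, was the most abundant, at a mean of 1230 CPM over the libraries. Tpi1, a glycolytic enzyme gene, rose in PS from 187, 169 and 197 CPM to 310, 332 and 315 CPM (adjusted p = 0.00503) and held 312, 377 and 367 CPM in control RS and 372, 299 and 368 CPM in KO RS. Its RS groups overlapped, and the interaction was -0.82 ± 0.21 (adjusted p = 0.175, and 0.00974 with the block).

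**Figure D4:**
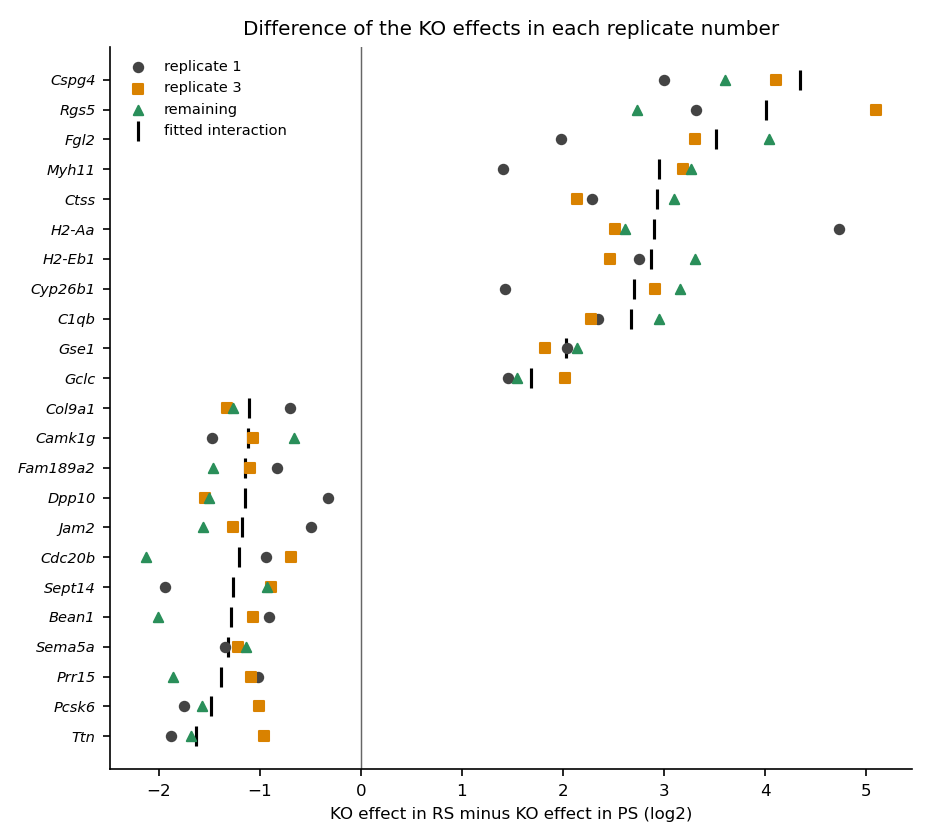
KO effect in RS minus KO effect in PS (log2, horizontal axis) within each replicate number for the called genes and the genes named from the blocked fit, leaving out 4 with a group at or under 3 counts; black bars give the fitted interaction. Each of the 3 numbers lies on the same side of 0 for every gene shown, but the genes were chosen from these same libraries.

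The corepressor complex itself was split. Of 13 members and class I deacetylases tested, 1 fell in PS, Hdac3, and in RS 2 rose, Tbl1x among them, and 1 fell, Hdac3. The paralogous subunits Tbl1x and Tbl1xr1 passed with the block in opposite directions. Tbl1x, on the X chromosome, held 5.83, 4.82 and 7.57 CPM in control PS and 9.73, 6.91 and 11.4 CPM in KO PS, and 3.67, 2.45 and 2.68 CPM in control RS and 14.3, 12.6 and 14.6 CPM in KO RS. KO RS was above every other group; the interaction was 1.61 ± 0.37 (adjusted p = 0.154, and 0.00635 with the block). Tbl1xr1 had 77.5 and 108 CPM in control and KO PS and 61.8 and 53.6 CPM in RS, an interaction of -0.69 ± 0.22 (adjusted p = 0.219, and 0.0199 with the block). Of 14 other deacetylases and sirtuins, 5 rose and 3 fell in RS and 2 fell in PS, and Sirt1, Sirt2, Sirt6 and Hdac6 passed with the block, all positive. Sirt1, a deacetylase that depends on NAD, held 19.99, 20.9 and 20.5 CPM in control RS and 47.2, 49.1 and 41.3 CPM in KO RS, while its PS groups overlapped (51.6 to 66.0 and 50.6 to 80.7 CPM).

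Lipid synthesis and circadian clock genes are known targets of HDAC3 in liver. Of 24 genes of fatty acid synthesis and lipid storage, 1 rose and 2 fell in PS and 11 rose and 2 fell in RS; the median interaction was 0.53, and 5 passed with the block, Fads1, Fads2, Acly, Gpam and Mlxipl. Fads1, the delta-5 desaturase of long polyunsaturated fatty acids, held 34.9, 42.4 and 55.4 CPM in control PS, 37.3, 43.1 and 62.9 CPM in KO PS, 6.45, 8.67 and 8.38 CPM in control RS and 17.9, 27.8 and 22.2 CPM in KO RS. Its RS groups stood apart and its PS groups overlapped; the interaction was 1.42 ± 0.34 (adjusted p = 0.171, and 0.00297 with the block). Of 26 sterol genes 10 rose and 4 fell in RS and 3 rose and 1 fell in PS, and their median interaction was 0.22. With the block 1 interaction was positive and 1 negative, the latter that of Sqle, the squalene epoxidase gene (-0.58). Among 18 clock genes 1 rose in PS and 9 rose and 1 fell in RS, and Clock (1.01), Nr1d2 (0.88) and Tef (0.79) passed with the block. In RS the rises of the lipid, sterol and clock lists (11 of 24, 10 of 26 and 9 of 18) were above the 20.1% of all genes, and the falls (2, 4 and 1) near or below the 14.2%.

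Of 16 p53 targets 0 passed in PS and 8 rose in RS, beside 20.1% of all genes, and Ccng1, Bax, Trp53inp1 and Aen passed with the block. Trp53inp1, which promotes p53 activity and autophagy, held 9.995, 8.54 and 9.03 CPM in control RS and 29.1, 26.5 and 33.3 CPM in KO RS against 18.7 to 24.6 and 22.1 to 34.7 CPM in PS. Only its RS groups were apart, and the interaction was 1.34 ± 0.28 (adjusted p = 0.129, and 0.00298 with the block). Of 18 interferon response genes 0 passed in PS and 7 rose in RS, and Stat2 and Irf9, partners in one transcription factor, passed with the block. Of 21 stress and immediate early genes 1 rose in PS, Ddit3, and 9 rose in RS. Ddit3, a transcription factor of the unfolded protein response, was the 1 call with the block (-0.64). Sertoli and Leydig markers rose in RS for 8 of 25 and 7 of 15, and without the block 0 passed in PS. With the block 7 Sertoli markers rose in PS and 15 in RS, beside 6.45% and 29.1% of all genes. For Leydig markers these counts were 0 and 12. The Sertoli medians were 0.63 in PS and 1.10 in RS. The interactions of Trf and Hsd3b1 passed with the block. KO RS replicate 3 stood highest: summed Sertoli markers were 171.1, 584.8 and 366.9 CPM in KO RS replicates 1, 3 and the remaining one, and summed Leydig markers 91.1, 319.8 and 210.2 CPM against 108.0 to 162.8 CPM in control RS. The RS groups stood apart, with KO higher, for 5 of the 25 Sertoli and 0 of the 15 Leydig markers. Of 10 endothelial markers 0 passed at either stage, and Eng (1.87) passed with the block. Of the red blood cell markers 1 was tested, Alas2, with effects of -0.56 in PS and -0.36 in RS that did not pass.

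The X chromosome is silenced in pachytene cells and remains largely repressed in spermatids, so its genes were counted apart. Of 695 genes tested, 228 rose and 22 fell in RS, and 38 rose and 6 fell in PS. Of all genes, 20.1% rose and 14.2% fell in RS, and 1.05% rose and 6.18% fell in PS. Median effects on the X were 0.67 in RS and 0.42 in PS, against 0.015 and -0.0041 for autosomes. The median interaction was 0.21 for X-linked and 0.10 for autosomal genes. Interactions passed with the block for 4.32% of X-linked genes, 27 positive and 3 negative, and for 7.91% of autosomal ones. Of 17 X-linked genes expressed after meiosis, Akap4 and H2afb1 were positive and Slxl1 negative with the block. Cytosolic ribosomal protein genes, with 1 call of 51 (Rpl14), replication-dependent histones (0 of 10) and Y-linked genes (0 of 9) had medians between -0.05 and 0.09, which changed sign with the setting.

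Some KO effects were large at both stages. Among genes that passed in the same direction in both, the largest mean falls were those of Abcg8, Dapl1 and Vstm2a and the largest mean rises those of Igfbp3, Slc5a5 and Ppp1r1b. Abcg8, one component of a sterol transporter, fell from 9.02, 9.04 and 7.18 CPM to 1.07, 2.103 and 2.52 CPM in PS and from 4.87, 5.89 and 5.53 CPM to 0.693, 1.83 and 1.73 CPM in RS. No groups overlapped at either stage. Its interaction was 0.21, with a 95% interval of -0.88 to 1.30. Igfbp3, a carrier of insulin-like growth factors, rose by 3.74 in PS and 1.75 in RS. Its PS groups stood apart. Its RS groups overlapped, at 0.886, 0.397 and 0.569 CPM in control and 0.751, 2.13 and 3.54 CPM in KO. The interaction of Igfbp3 was -1.99 (95% interval -3.93 to -0.05, adjusted p = 0.351, and 0.0677 with the block).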

How the data were processed

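Strand-specific total RNA libraries were aligned to mm10 with HISAT2 (version 2.1.0) and summarised by HTSeq, according to the submitters' processing notes, and the authors deposited the resulting raw counts as 1 table per cell type. Neither annotation nor strand setting is given in the sources used here; antisense, overlapping and near-identical genes are therefore uncertain. The deposited log2 fold changes and p-values, for which the submitters' processing notes name DESeq2, were not used for any result, nor were 12 normalized columns.

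In each group the column without a number matches the title of replicate 1 and the column numbered 2 that of replicate 3. The column numbered 3 matches only its group and is called the remaining replicate.

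The 12 count columns were joined by gene symbol and fitted together with the edgeR 4.0.16 quasi-likelihood test (R 4.3.3), with TMM scaling, filterByExpr by group, no block, Benjamini-Hochberg adjustment over all genes tested and a threshold of 0.05. The model has 8 residual degrees of freedom, or 6 with the block. Standard errors are log2 values from the same fit. The code was tested on simulated counts with no effect of replicate number, which cannot show whether the block is right for these data. To check pairing, deviations of log2 CPM (prior count 2) from group means were correlated: r was 0.134 to 0.495 between same-numbered libraries, counting the remaining ones as a number, and -0.478 to 0.199 for different numbers. Every same-number value was over 0.1, so libraries were taken as paired by number, with the pairing of the remaining libraries taken by elimination. Some different-number values were over 0.1 too, the highest of them above the lowest same-number value. The cut-off therefore does not separate same from different numbers, and the pairing is an assumption of the blocked fit. Replicates differed by more than sampling noise in every group (lowest chi-square per gene 16.3).

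Named genes were Hdac3, up to 12 per direction with a passing interaction, at least 5 CPM in the highest group and no overlap in at least 1 cell type, up to 3 per class of calls, up to 3 passing members per list (otherwise the most abundant) and 3 rises and 3 falls passing at both stages. A few genes that this rule or a count includes are not reported here by name. Where too few passed, the rule was applied to the blocked fit. The 28 gene lists, the rule and the comparison were chosen with earlier results of these data known. Positions and promoters are from GENCODE M21 and RefSeq on GRCm38 (mm10).

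Alternatives were the block over all libraries or within each cell type, library size only, DESeq2 1.42.0, limma 3.58.1 voom, no filter, separate fits per cell type, and leaving out each library or the 4 remaining ones. Chosen after seeing the data were the block without each number and the block with library size only or DESeq2. Depth limits low genes: 3 counts, taken as the floor, are worth 0.152 to 0.244 CPM.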

Additional observations from a re-analysis of the deposited data

Results flagged for a closer look

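For 3 genes the KO effects in the 2 cell types differed by the test of the difference itself. The interaction was 2.03 for Gse1 and 1.68 for Gclc (both adjusted p = 0.0154, edgeR) and 4.34 for Cspg4 (adjusted p = 0.0487). All 3 replicate numbers had the same sign for each gene, but the genes were called from these same libraries. KO RS replicate 1 was the only single library without which all 3 still passed, and without the 4 remaining libraries each had an adjusted p of 0.79. Cspg4 had 1 to 4 counts in each KO PS library, and voom gave it an adjusted p of 0.0604. Why these genes differ between the stages was not tested.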

How the results depend on the processing

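The count of passing interactions was the least stable result. It was 3 as reported, 1285 with the replicate block, 1262 with the block within each cell type, 35 under library size only, 95 with DESeq2, 6 without the filter, and 0 without the 4 remaining libraries, where 1018 genes had an unadjusted p under 0.05 and edgeR was the tool. Added after seeing the data, the block gave 1512 without number 1, 14 without number 3, 26 without the remaining libraries, 2859 with library size only and 2038 with DESeq2. Leaving out 1 library at a time gave 0 to 6 interactions, 382 to 1747 genes in PS and 3105 to 6634 in RS. PS counts were 3189 and 3169 under the 2 blocks, 702 without the remaining libraries, and with the block 3306 without them, 3086 under library size and 3378 under DESeq2. RS counts were 9125 and 9094 under the 2 blocks, 2607 without the remaining libraries, and with the block 8632 under library size and 9143 under DESeq2. The cause of these differences was not tested.

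Some signs turned, all of interactions that did not pass. Hdac3 ranged from -0.24 to 0.19 over single libraries left out, and was -0.079 with DESeq2, -0.064 without the filter, -0.127 without the remaining libraries and, with the block, -0.121 without number 1, -0.127 without the remaining libraries and -0.086 with DESeq2. Under library size only, and with the block added, the values were 0.063 and 0.061 for Stag3, 0.036 and 0.036 for Hspa2, 0.0056 and 0.0063 for Ybx2, 0.104 and 0.105 for Odf2, 0.119 and 0.074 for Fcgr3, 0.012 and 0.014 for Hdac1, 0.180 and 0.201 for Per1, 0.047 and 0.038 for Eif2s3y, and 0.119 and 0.119 for Rplp0. With the block and without number 3, Abcg8 had -0.038, Clu -0.037, Cyp17a1 -0.078, Vwf -0.24 and Alas2 -1.31, and without number 1 Vstm2a had -0.67 and Hspa5 -0.13. Alas2 had -0.016 with voom. Over single libraries left out, ranges were -0.18 to 0.46 for Abcg8, -0.28 to 0.38 for Vstm2a, -0.467 to 0.0221 for Fcgr3, -0.04 to 1.34 for Vwf, -0.86 to 0.85 for Alas2, -0.354 to 0.0758 for Per1 and -0.13 to 0.19 for Hspa5. Depth limits genes near 3 counts, where 24 of the 1285 calls made with the block had a group.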
